A study of Mus musculus with 3 samples.

Results

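Natural killer (NK) cells were described among immune cells (CD45+) sorted from the sciatic nerve. They were chosen by the measured UMI counts of 8 genes and were cells with at least 1 Ncr1 UMI, no UMI of Cd3d, Cd3e or Cd3g, no Cd79a UMI and at most 1 UMI over C1qa, C1qb and C1qc, a UMI (unique molecular identifier) standing for 1 transcript that was captured. Of 13770 cells in all, 13637 had at most 5000 genes and at most 20% mitochondrial UMIs, and 144 of these met the rule. The NK cells numbered 54, 76 and 14 in libraries 1 to 3.

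All mice were neuropathic and of the genotype NOD.AireGW/+, that is NOD mice with 1 copy of a mutant Aire, a gene needed for immune tolerance, and no other allele or agent is given in the labels. A single mouse gave library 1 and another gave library 2, while library 3 held the cells of 2 mice together, which were not separated here. With 1 group and no healthy nerve analysed here, NK cells were compared with other cells of the same libraries, and no effect of disease was measured. The labels give neither age nor sex for the libraries.

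NK cells are innate lymphocytes that kill infected or stressed cells without an antigen receptor made by gene rearrangement. Activating receptors such as NKp46, the product of Ncr1, signal through small adaptors, while inhibitory Ly49 receptors read MHC class I on other cells and restrain killing. Granules release perforin and granzymes into the target, and cytokines and chemokines act on neighbouring cells. Gamma delta and CD8 T cells share much of this killing programme and were therefore used as comparisons.

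The sequences just upstream of 3 genes that the results turn on are shown for orientation. They are Ncr1, which defines the cells, Gzma, a granzyme gene, and Xcl1, a chemokine gene. They are the 250 bases before the start site in RefSeq (GRCm38.p6, the assembly of the mm10 build), 5′ to 3′ on the strand of the gene. Capitals mark TGTGGT or its reverse complement ACCACA, the core letters that Runx factors are known to bind.
Ncr1, chr7:4337465-4337714, plus strand: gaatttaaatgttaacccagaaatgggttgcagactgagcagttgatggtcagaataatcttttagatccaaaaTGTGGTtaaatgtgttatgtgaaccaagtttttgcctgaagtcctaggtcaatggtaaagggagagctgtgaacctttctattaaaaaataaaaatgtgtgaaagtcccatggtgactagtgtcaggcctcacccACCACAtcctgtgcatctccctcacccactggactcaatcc
Gzma, chr13:113100982-113101231, minus strand: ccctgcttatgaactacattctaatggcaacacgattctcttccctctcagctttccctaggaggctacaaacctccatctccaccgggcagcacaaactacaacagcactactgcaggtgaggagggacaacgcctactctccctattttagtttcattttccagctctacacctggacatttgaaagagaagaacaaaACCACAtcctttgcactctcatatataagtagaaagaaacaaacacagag
Xcl1, chr1:164935523-164935772, minus strand: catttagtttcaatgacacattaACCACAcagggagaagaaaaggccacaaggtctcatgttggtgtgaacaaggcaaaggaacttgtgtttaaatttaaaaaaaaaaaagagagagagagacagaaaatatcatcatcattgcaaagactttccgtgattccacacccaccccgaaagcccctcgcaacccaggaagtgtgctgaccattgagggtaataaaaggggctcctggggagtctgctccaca
These letters began 176 and 41 bases upstream of the Ncr1 start, 50 bases upstream of the Gzma start and 227 bases upstream of the Xcl1 start. On either strand they were present in 14% of all 32851 promoter windows of this length, in 11% of the windows of genes tested against CD8 T cells and in 10.7% and 13.8% of the windows of genes higher and lower in NK cells. A match is a run of letters and not a measured binding site.

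By GENCODE annotation (GRCm38), Ncr1 lies on chromosome 7 from 4337724 to 4345164 and Gzma on chromosome 13 from 113093825 to 113100981. The Ly49 genes form 1 stretch of chromosome 6, in which Klra4 spans 130043731 to 130067271, Klra8 130115226 to 130129898 and Klra7 130218605 to 130233322. Klrb1a, Klrb1c and Klrb1b lie on the same chromosome, from 128609227, 128778485 and 128813706. The longest coding transcripts of the Ly49 genes were alike, with 96.2% identical bases between Klra3 and Klra9, 90.6% between Klra8 and Klra9, and 76.8% between Klra7 and Klra8. Reads were mapped to mm10, which is C57BL/6, while the mice were NOD, a strain with its own set of Ly49 genes. A Ly49 level is therefore the number of reads assigned to that reference gene, and the division of reads among near copies is uncertain. The same caution holds for the serpins Serpinb9 and Serpinb9b. How alike the Klrb1 genes are was not measured, so the division of reads among them is not known either.

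NK cells made up 1.40% of the filtered cells of library 1 (exact 95% interval 1.06 to 1.83), 0.921% of library 2 (0.726 to 1.15) and 0.913% of library 3 (0.500 to 1.53), or 1.08% ± 0.281 (SD, n = 3 libraries). These intervals cover counting error only. Of NK cells and Cd3-positive cells together, they were 1.58%, 1.42% and 1.08%, so the lower share of library 2 among all cells was less apparent among lymphocytes. Cells with at least 1000 UMIs were also thinned to 1000 UMIs and the rule applied again, while cells with fewer were left out. Then 58 of 3383, 69 of 7992 and 9 of 1253 cells met the rule, or 1.71%, 0.863% and 0.718%. A cell can lose its Ncr1 UMIs in thinning, or enter by losing its Cd3 UMIs. Requiring in addition that no Trac, Trbc1 or Trbc2 UMI be present lowered the mean share to 0.484%.

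The NK cells were sequenced to a median of 4942.5, 3818 and 2960.5 UMIs, from 22983991, 55120460 and 3399733 UMIs of the whole libraries, whose median cell held 3985.5, 4659 and 1726. Library 3 contributed 41987 NK UMIs of 656482, so its low values are the least precise. The libraries shared 36, 7 and 14 cell barcodes pairwise, and no shared barcode was an NK cell in both libraries.

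The label was checked first. Levels are given as raw CPM, the UMIs of a gene among 1000000 UMIs of the class. Gzma (granzyme A) stood at 3628, 4293 and 4930 in NK cells of libraries 1 to 3, and between 68.1 and 408 in gamma delta and CD8 T cells. Klrb1a stood at 227, 223 and 333 in NK cells, 54.0, 40.5 and 47.6 in gamma delta T cells and 5.08, 11.7 and 10.7 in CD8 T cells. Klra8 stood at 496, 208 and 357 in NK cells, 214, 38.4 and 190.3 in gamma delta T cells and 10.8, 1.35 and 1.79 in CD8 T cells. Klra7 stood at 265, 157 and 286 in NK cells, 117, 139 and 107 in gamma delta T cells and 5.08, 4.94 and 1.79 in CD8 T cells. Serpinb9 stood at 1062, 831 and 1215 in NK cells, 157, 73.7 and 107 in gamma delta T cells and 85.5, 44.2 and 91.2 in CD8 T cells. NK cells were above CD8 T cells in every library for each of these 5 genes, and above gamma delta T cells too. Against cells with Ncr1 and Cd3 UMIs, described below, this held for Gzma and Serpinb9 but not for Klra8, Klra7 and Klrb1a. These markers were given together with the rule and chosen with results of these data known, so their levels are a description and were not tested.

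Single cells did not all carry every marker. Gzma was detected in 98 of 144 NK cells (68.1%), Serpinb9 in 110 (76.4%), Klra8 in 61 (42.4%) and Klra7 in 35 (24.3%). Of the 5 markers outside the rule, all were found in 14 cells and none in 9. Cells with exactly 1 Ncr1 UMI numbered 25, and their Gzma level was 3063 raw CPM against 4223 in the 119 cells with more. Outside the rule were 43 cells with Ncr1 and exactly 1 Cd3 UMI, at 2139 for Gzma, 10 cells with 2 or more C1q UMIs, all in library 2, at 624, and 6 cells without Ncr1 but with 3 or more of the 5 markers. Ncr1 UMIs were seen in 1.27%, 0.308% and 0% of B cells, which should lack the gene.

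**Figure D1:**
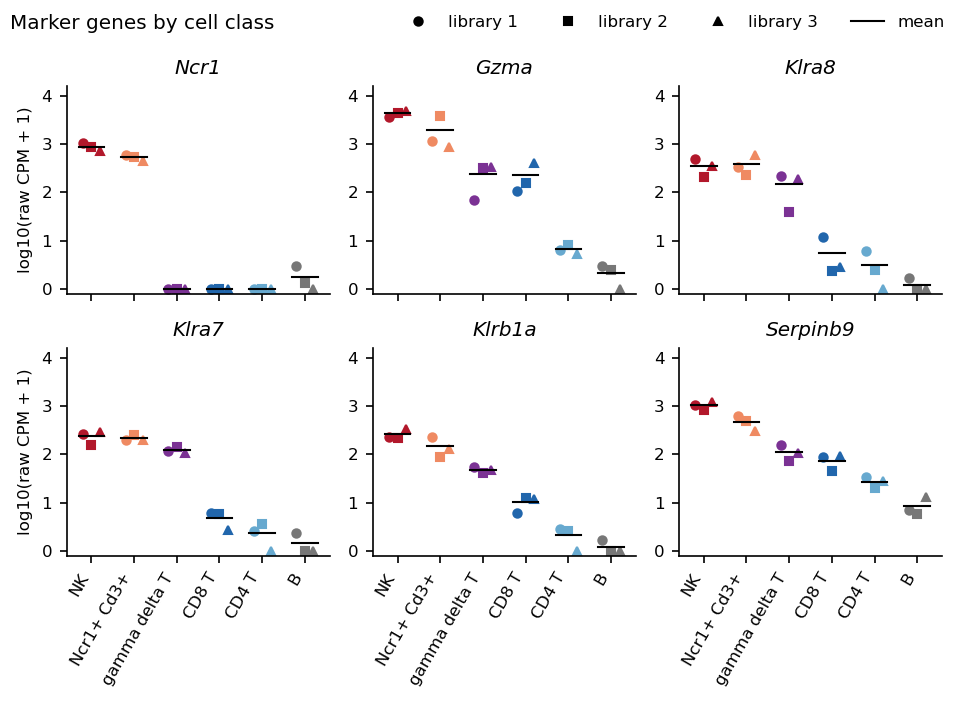
raw CPM of the 6 marker genes in 6 cell classes, on a log10(value + 1) axis, with 1 symbol per library and the mean of 3 as a line. Gzma lies between 3628 and 4930 in NK cells, and Ncr1 was set to 0 in the CD8 and gamma delta T cells by their definition.

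Markers of other cells were mostly absent. No UMI of the neutrophil, Schwann cell and stroma, or mast cell and basophil lists was found in NK cells, nor of Il23r, Il22 and Il17a, which mark type 3 innate lymphoid cells. Apart from the C1q genes, which are held to at most 1 UMI in NK and CD8 T cells alike, the 5 macrophage genes summed to 3.54, 163 and 23.8 raw CPM in NK cells and to 257, 383 and 41.1 in CD8 T cells. Trac, Trbc1 or Trbc2 was detected in 75 of 144 NK cells (52.1%). Trac stood at 21.2, 30.1 and 23.8 raw CPM in NK cells, 303, 220 and 241 in CD8 T cells and 2.74, 0 and 5.95 in B cells. Trbc2 stood at 53.1, 130 and 238 raw CPM in NK cells and 279, 299 and 628 in CD8 T cells. Trbc1 stood at 67.2, 87.4 and 95.3 in NK cells and 64.8, 229.9 and 186 in CD8 T cells, so that in library 1 it was as high in NK cells as in CD8 T cells. Whether these transcripts belong to the NK cells or to T cells whose Cd3 transcripts were missed was not tested. The comparisons were therefore repeated without the 75 cells, in libraries 1 and 2 only, since 4 NK cells were then left in library 3. Among NK cells, 2 held 100 or more UMIs of H2-Aa, an MHC class II gene of antigen-presenting cells, and the comparisons were also repeated without them.

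To ask what NK cells express that killer T cells in the same nerve do not, UMIs were summed per library and compared with 2022 CD8 T cells (Cd8a and Cd3 positive, Ncr1 and Cd4 negative). Of 5256 genes tested with edgeR, 351 (6.68%) were higher and 409 (7.78%) lower in NK cells at an adjusted p under 0.05, 14.5% in all. Activating C-type lectin receptors, the adaptors Fcer1g and Tyrobp, Ly49 receptors, Irf8 and the chemokine gene Xcl1 were higher. The inhibitory receptors Pdcd1, Lag3 and Havcr2, the granzyme gene Gzmk, Ifng and genes of division and T cell receptor signalling were lower. Of the higher genes, Xcl1, Tyrobp, Klrk1 and several Ly49 genes did not pass the threshold against gamma delta T cells, as given below. Levels below are CPM, that is raw CPM rescaled by the TMM factors of edgeR. Differences are log2, NK minus CD8 T, with their SE. The SE was derived from the edgeR test, as the absolute difference divided by the square root of its F statistic. The test shares its variance estimate between genes, so an SE or p need not measure the spread of that gene over the libraries. The 3 comparisons between classes share the NK sums and are not independent of each other.

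Of 14 genes tested in the list of activating receptors and adaptors, 8 were higher and 1 was lower, with a median log2 difference of 1.43 against -0.02 over all genes. In NK cells, Klrb1c was at 183, 129 and 142 CPM, and in CD8 T cells at 1.11, 2.34 and 2.00 CPM. Klrb1c had a log2 difference of 6.47 (SE 0.34, adjusted p by edgeR = 9e-16), with no overlap between the classes. Klrb1c encodes the activating receptor NKR-P1C. The levels of Klrb1b were 609, 379 and 425 CPM in NK cells and 17.8, 19.7 and 16.0 CPM in CD8 T cells. Klrb1b had a log2 difference of 4.72 (SE 0.18, adjusted p by edgeR = 5.1e-19), with no overlap between the classes. Klrb1b, though in this list, encodes NKR-P1B, an inhibitory receptor that reads a ligand of the Clec2 family. For Fcer1g, NK cells had 1237, 1924 and 1771 CPM and CD8 T cells 144, 274 and 119.8 CPM. Fcer1g had a log2 difference of 3.11 (SE 0.14, adjusted p by edgeR = 4.1e-17), with no overlap between the classes. Tyrobp stood at 1548, 2054 and 1794 CPM in NK cells and at 277, 279 and 77.9 CPM in CD8 T cells. Fcer1g and Tyrobp encode the adaptors through which NKp46 and activating Ly49 receptors signal. Tyrobp had a log2 difference of 2.95 (SE 0.18, adjusted p by edgeR = 2e-14), with no overlap between the classes. Both adaptors are also macrophage genes. The sums of 5 macrophage genes outside the rule, given above, were lower in NK cells than in CD8 T cells of each library. Whether RNA of macrophages or other myeloid cells adds to the adaptor levels was not tested. Klrb1f, Klrk1 (NKG2D), Cd244a (2B4) and Cd226 (DNAM-1) were higher by 4.12, 1.24, 2.16 and 1.61. The exception was Cd247, the zeta chain shared with the T cell receptor, at -2.25 (edgeR adjusted p = 3.3e-10).

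The list of Ly49 and inhibitory receptors holds both kinds of Ly49 gene, since Klra4 encodes the activating Ly49D. Of 17 tested, 9 were higher and 6 lower, with a median of 0.63, which stays so with Havcr2 at its bound. In NK cells, Klra4 was at 808, 502 and 1275 CPM, and in CD8 T cells at 48.5, 17.1 and 32.0 CPM. Klra4 had a log2 difference of 4.47 (SE 0.16, adjusted p by edgeR = 2.4e-19), with no overlap between the classes. The levels of Klra1 were 215, 278 and 1251 CPM in NK cells and 23.9, 23.9 and 59.9 CPM in CD8 T cells. NK cells of library 3 stood well above those of the other two for Klra1. Klra1 had a log2 difference of 3.58 (SE 0.20, adjusted p by edgeR = 3.9e-15), with no overlap between the classes. Klra9 and Klra10 differed by 3.87 and 4.21. Klri1, Klri2 and Klre1, lectin receptors of the same gene complex, differed by 4.97, 3.09 and 1.30, and Klrg1, a marker of mature NK cells and effector T cells, by 2.87. Klrd1, the remaining higher gene, lay between 0.26 and 0.52 over all settings, and its call was lost under 7 of 12 alternatives.

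The receptors that mark T cells after lasting stimulation went the other way. For Pdcd1, NK cells had 3.20, 28.4 and 0 CPM and CD8 T cells 697, 521 and 725 CPM. Pdcd1 had a log2 difference of -5.36 (SE 0.30, adjusted p by edgeR = 7e-15), with no overlap between the classes. Pdcd1 encodes PD-1. Lag3 stood at 80.1, 56.8 and 23.6 CPM in NK cells and at 599, 376 and 318 CPM in CD8 T cells. Lag3 had a log2 difference of -2.86 (SE 0.20, adjusted p by edgeR = 6.5e-13), with no overlap between the classes. Havcr2 (TIM-3) had 0 UMIs in NK cells and 1071 in CD8 T cells, at least 23.6-fold lower when the NK sum is set to a floor of 3 counts. Ctla4 and Tigit were lower, at -1.57 and -0.67, and Klrc1 (NKG2A), a receptor found on both lineages, at -1.38. The Tigit call was lost without library 1 or library 2. NK cells held Tigit at 288, 221 and 472 CPM and Ctla4 at 154, 252 and 94.4.

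**Figure D2:**
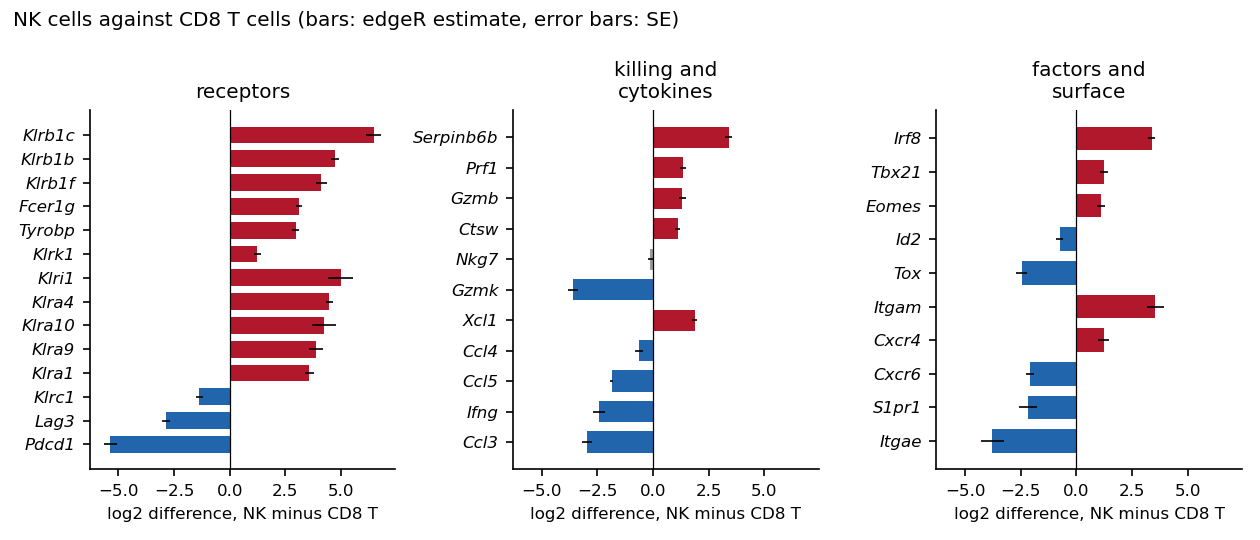
Log2 differences, NK cells minus CD8 T cells, as edgeR estimates with SE as error bars, from 3 libraries. Red and blue bars passed an adjusted p of 0.05 and grey did not, with Klrb1c at 6.47 and Pdcd1 at -5.36.

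Among killing genes, 4 of 10 were higher and 1 lower, with a median of 0.24. In NK cells, Prf1 was at 484, 359.6 and 236 CPM, and in CD8 T cells at 196, 141 and 77.9 CPM. Prf1 had a log2 difference of 1.34 (SE 0.14, adjusted p by edgeR = 4.2e-09), with no overlap between the classes. Prf1 encodes perforin, which opens the target membrane. The levels of Gzmb were 1234, 1019 and 1086 CPM in NK cells and 300.4, 566 and 637 CPM in CD8 T cells. Gzmb had a log2 difference of 1.31 (SE 0.16, adjusted p by edgeR = 2.3e-07), with no overlap between the classes. Without the library as a block this call was lost. Ctsw, a protease of cytotoxic granules, and Serpinb6b were higher by 1.10 and 3.39. For Gzmk, NK cells had 38.5, 50.5 and 47.2 CPM and CD8 T cells 607, 464 and 607 CPM. Gzmk had a log2 difference of -3.59 (SE 0.21, adjusted p by edgeR = 2e-14), with no overlap between the classes. Gzmk encodes granzyme K, found in memory and effector CD8 T cells. Nkg7, a granule membrane protein, gave -0.12 with an SE of 0.10 and did not pass the test, but it passed at -0.21 without library 3.

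Cytokine and chemokine genes were mostly lower, 4 of 7 against 1 higher, with a median of -0.63. Xcl1 stood at 1176, 748 and 755 CPM in NK cells and at 289.8, 238 and 192 CPM in CD8 T cells. Xcl1 had a log2 difference of 1.86 (SE 0.13, adjusted p by edgeR = 9.4e-13), with no overlap between the classes. Xcl1 encodes a chemokine that draws cross-presenting dendritic cells. In NK cells, Ifng was at 41.7, 31.5 and 0 CPM, and in CD8 T cells at 141, 228 and 224 CPM. Ifng had a log2 difference of -2.45 (SE 0.27, adjusted p by edgeR = 2.5e-08), with no overlap between the classes. Ccl5 was high in both classes, at 4233, 8101 and 8050.0 CPM in NK cells, and lower there, at -1.86. Ccl3 was lower, at -2.97. The levels of Ccl4 were 968, 571 and 330.5 CPM in NK cells and 914, 1444 and 631 CPM in CD8 T cells. Ccl4 was not uniform between libraries, and 1 cell of library 1 held 166 of its 497 NK UMIs. Ccl4 had a log2 difference of -0.63 (SE 0.17, adjusted p by edgeR = 0.011), with some overlap between the classes. Leaving out library 2, the call was lost.

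Cytokine receptor genes differed in both directions. For Il2rb, NK cells had 1324, 1028 and 991 CPM and CD8 T cells 558, 428 and 423 CPM. Il2rb had a log2 difference of 1.25 (SE 0.12, adjusted p by edgeR = 1.1e-09), with no overlap between the classes. Il2rb encodes the beta chain through which NK cells sense interleukin-15. Il18r1 and Il18rap, the chains of the interleukin-18 receptor, were higher by 1.24 and 1.83, and Il7r and Il21r, the interleukin-21 receptor gene, were lower, at -1.20 and -0.93, the Il21r call being lost at -0.45 without cells with T cell receptor UMIs. In all, 5 of 10 cytokine receptor genes were higher and 3 lower, with a median of 0.18.

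Of 14 transcription factor genes, 3 were higher and 3 lower, with a median of -0.07. Irf8 stood at 1134, 899 and 1204 CPM in NK cells and at 132, 91.9 and 41.9 CPM in CD8 T cells. Irf8 had a log2 difference of 3.37 (SE 0.16, adjusted p by edgeR = 1.1e-16), with no overlap between the classes. Irf8 encodes a factor of myeloid cells, B cells and NK cells. In NK cells, Eomes was at 189, 179.8 and 330.5 CPM, and in CD8 T cells at 117, 69.1 and 83.9 CPM. Eomes had a log2 difference of 1.11 (SE 0.19, adjusted p by edgeR = 5.4e-05), with no overlap between the classes. Eomes and Tbx21 encode the T-box factors that direct NK cell development, and Tbx21 was higher by 1.22. The Eomes call was lost when NK cells with T cell receptor UMIs were left out. The levels of Tox were 48.1, 22.1 and 0 CPM in NK cells and 221, 148 and 102 CPM in CD8 T cells. Tox had a log2 difference of -2.46 (SE 0.26, adjusted p by edgeR = 1.1e-08), with no overlap between the classes. Tox, which is sustained in chronically stimulated T cells, was detected in NK cells of libraries 1 and 2. Id2 was lower, at -0.75, a call that was lost without library 1.

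Genes of maturation and migration differed in both directions. For Itgam, NK cells had 70.5, 63.1 and 70.8 CPM and CD8 T cells 7.04, 5.16 and 0 CPM. Itgam had a log2 difference of 3.55 (SE 0.37, adjusted p by edgeR = 7.7e-09), with no overlap between the classes. Itgam encodes CD11b, which appears as NK cells mature. Emb was higher by 1.23 and Cd27, lost during maturation, lower, at -1.05, which gave 2 higher and 1 lower of 4 maturation genes tested. Itgae stood at 0, 9.46 and 23.6 CPM in NK cells and at 69.4, 101 and 36.0 CPM in CD8 T cells. Itgae had a log2 difference of -3.77 (SE 0.51, adjusted p by edgeR = 9.7e-07), with no overlap between the classes. Itgae encodes CD103, an integrin of resident lymphocytes. Cxcr6 was lower, at -2.10 and S1pr1, the receptor for exit from tissue, at -2.18, while the chemokine receptor gene Cxcr4 was higher by 1.22. Among 12 migration genes, 4 were higher and 7 lower.

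Genes associated with type 1 innate lymphoid cells, the tissue-resident relatives of NK cells, were mixed, with 3 higher and 3 lower of 6. In NK cells, Tmem176b was at 109, 274 and 94.4 CPM, and in CD8 T cells at 23.9, 37.5 and 9.99 CPM. Tmem176b had a log2 difference of 2.62 (SE 0.25, adjusted p by edgeR = 8.1e-10), with no overlap between the classes. Tmem176b and its neighbour Tmem176a (2.36) were higher, the latter not without the cells with T cell receptor UMIs, as was Itga1 (CD49a, 1.39), a call lost without library 1. Il7r, Cxcr6 and Inpp4b were lower, the last at -1.92.

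All 10 T cell receptor signalling genes were lower in NK cells, with a median of -1.13. Cd6 and Cd5, receptors that tune T cell activation, had 2 and 3 UMIs over all NK cells against 2111 and 1429 in CD8 T cells, that is 69.7-fold (counting interval 19.3 to 576) and 31.5-fold (10.7 to 153) lower in raw CPM. The levels of Lat were 73.7, 101 and 47.2 CPM in NK cells and 525, 631 and 649 CPM in CD8 T cells. Lat had a log2 difference of -2.80 (SE 0.19, adjusted p by edgeR = 2.9e-13), with no overlap between the classes. Of 6 division genes 5 were lower, with a median of -1.93, and Birc5, a gene of dividing cells, had 2 UMIs in NK cells. For Stmn1, NK cells had 25.6, 47.3 and 70.8 CPM and CD8 T cells 148, 257 and 292 CPM. Interferon-stimulated genes were lower in 6 of 7, with Ifit1 and Ifit3 at 0 UMIs in NK cells, at least 8.87-fold and 9.64-fold below CD8 T cells. Ribosomal protein genes, a control for composition, were higher in 5 of 83 and lower in 0.

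Outside these lists, Tmsb15a, a thymosin gene, had 62 UMIs in NK cells and 0 in CD8 T cells, at least 313-fold higher by the floor of 3 counts. Serpinb9b, a paralog of the granzyme B inhibitor gene Serpinb9, had 69 UMIs in NK cells and 3 in CD8 T cells, 348-fold higher in raw CPM (counting interval 114 to 1730). Those UMIs came from 19 NK cells. Car2 stood at 308, 237 and 307 CPM in NK cells and at 10.0, 4.69 and 9.99 CPM in CD8 T cells. Car2 had a log2 difference of 5.18 (SE 0.26, adjusted p by edgeR = 2.1e-16), with no overlap between the classes. Car2 encodes carbonic anhydrase 2. Emid1, Gpc1 (a glypican) and Gstm1 (a glutathione transferase) were higher by 4.75, 4.68 and 4.66.

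**Figure D3:**
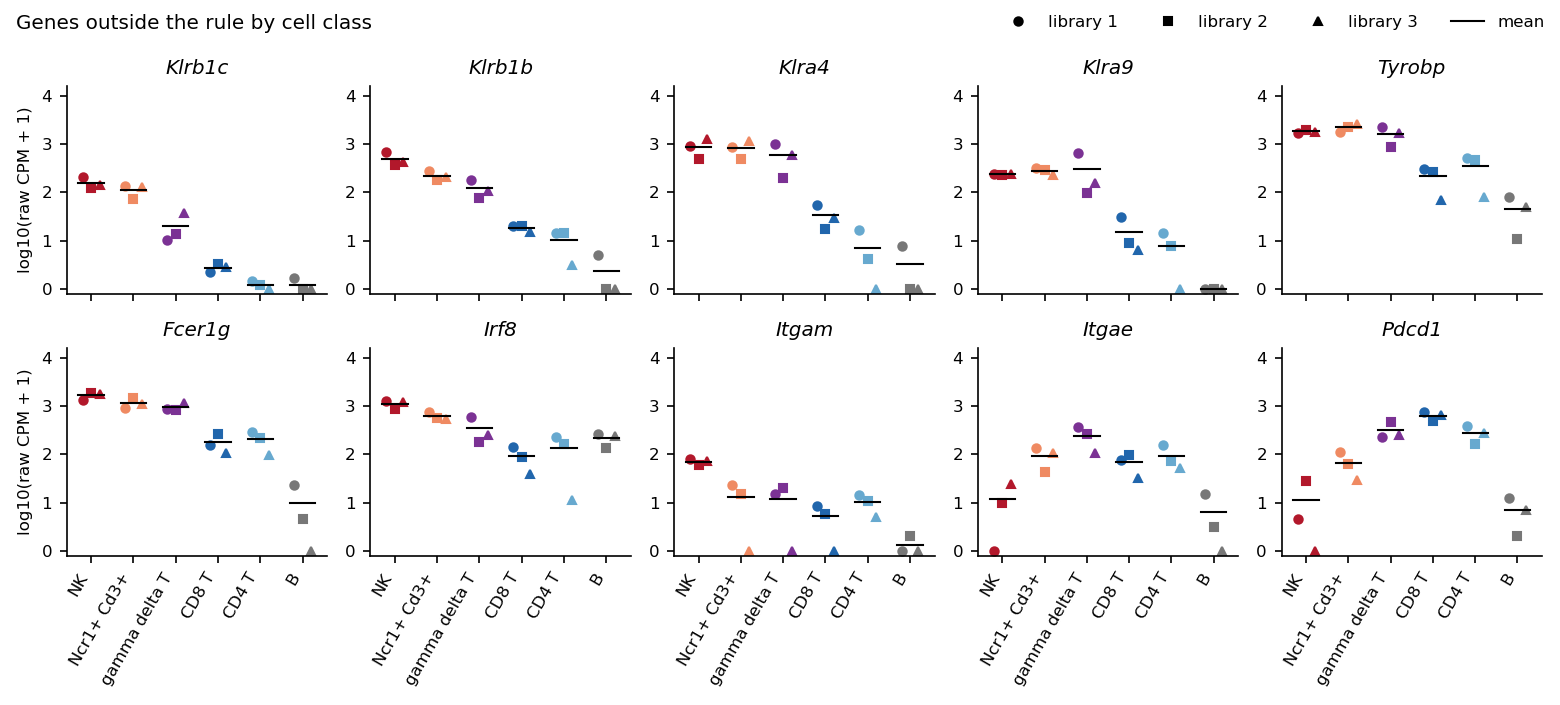
raw CPM of 10 genes outside the rule in 6 cell classes, on a log10(value + 1) axis. Each symbol is 1 library, the line is the mean of 3, and Klrb1c is highest and Pdcd1 low in NK cells.

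Gamma delta T cells are innate-like T cells that also carry NK receptors. To ask what differs among cells with such receptors, NK cells were compared with 281 gamma delta T cells (Cd3 and Trdc positive, and Ncr1, Trac, Cd4 and Cd8b1 negative). Of 4021 genes, 92 (2.29%) were higher and 116 (2.88%) lower in NK cells by edgeR, 5.17% in all. Without library 1, 58 genes were called. In NK cells, Klrb1c was at 184, 128 and 146 CPM, and in gamma delta T cells at 8.57, 12.9 and 38.9 CPM. Klrb1c had a log2 difference of 3.48 (SE 0.36, adjusted p by edgeR = 4.6e-07), with no overlap between the classes. The levels of Klrb1b were 615, 376 and 438 CPM in NK cells and 165, 78.3 and 117 CPM in gamma delta T cells. Klrb1b had a log2 difference of 2.05 (SE 0.19, adjusted p by edgeR = 4.9e-08), with no overlap between the classes. The NKR-P1 genes Klrb1c and Klrb1b thus stood above both T cell classes. For 4 Ly49 genes that were higher than in CD8 T cells no difference passed the threshold. Klra4, Klra1, Klra9 and Klra10 gave differences of 0.60, 0.34, -0.13 and 0.72, with adjusted p between 0.096 and 0.94. Under 4 alternatives Klra4 passed the threshold, the largest difference being 1.21 without library 1, and without library 2 Klra9 passed it at -1.10. For Klra5, NK cells had 64.7, 75.2 and 0 CPM and gamma delta T cells 293, 316 and 441 CPM. Klra5 had a log2 difference of -2.29 (SE 0.27, adjusted p by edgeR = 2e-06), with no overlap between the classes. Klra5 was thus a Ly49 gene found at higher levels in gamma delta T cells. In the list of Ly49 and inhibitory receptors, 1 of 15 was higher, Klre1 at 1.30, and 3 were lower, including Pdcd1 and Lag3.

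Among killing genes, 2 of 11 were higher and 0 lower, with a median of 0.18 against -0.01 over all genes. Serpinb6b stood at 686, 276 and 511 CPM in NK cells and at 57.8, 29.0 and 64.9 CPM in gamma delta T cells. Serpinb6b had a log2 difference of 3.36 (SE 0.22, adjusted p by edgeR = 1.7e-10), with no overlap between the classes. Serpinb6b encodes an intracellular protease inhibitor. Prf1 differed by 0.70 (edgeR adjusted p = 0.022), a call lost without any 1 of the 3 libraries. Xcl1, Klrk1, Tyrobp, Gzmb and Tbx21, all higher than in CD8 T cells, did not pass here. They gave 0.40, 0.47, 0.29, 0.07 and -0.09, with adjusted p by edgeR between 0.11 and 0.95. Gzmb stood at 1246, 1012 and 1119 CPM in NK cells and 679, 1964 and 701 in gamma delta T cells. Serpinb9b had 69 UMIs in NK cells and 2 in gamma delta T cells, 77.5-fold higher in raw CPM (counting interval 20.6 to 652). In NK cells, Irf8 was at 1146, 893 and 1240.4 CPM, and in gamma delta T cells at 555, 188 and 272 CPM. Irf8 had a log2 difference of 1.72 (SE 0.19, adjusted p by edgeR = 8.9e-07), with no overlap between the classes. The levels of Eomes were 191, 179 and 340.5 CPM in NK cells and 79.3, 32.2 and 51.9 CPM in gamma delta T cells. Eomes had a log2 difference of 1.95 (SE 0.28, adjusted p by edgeR = 5.3e-05), with no overlap between the classes. Irf8 and Eomes were the 2 of 13 transcription factor genes that were higher. Il18r1, Il18rap and Ifngr1, the interferon gamma receptor gene, were the 3 of 9 cytokine receptors that were higher, by 1.46, 1.81 and 1.02. Without library 1 the calls of Il18r1, Itgam, Klre1 and Cd28 were lost.

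Among 11 migration genes, 2 were higher and 3 lower. For Itgae, NK cells had 0, 9.40 and 24.3 CPM and gamma delta T cells 334, 269 and 117 CPM. Itgae had a log2 difference of -5.49 (SE 0.46, adjusted p by edgeR = 9.6e-09), with no overlap between the classes. Gamma delta T cells were higher in each library. Pdcd1 stood at 3.24, 28.2 and 0 CPM in NK cells and at 208, 479 and 272 CPM in gamma delta T cells. Pdcd1 had a log2 difference of -4.52 (SE 0.34, adjusted p by edgeR = 1.5e-09), with no overlap between the classes. S100a4, a calcium-binding protein of motile effector cells, was lower in NK cells, at -2.57, Cxcr6 at -2.03 and Il7r at -1.81. Ccl5 was also lower, at 4275, 8047 and 8293 CPM in NK cells and 6439, 18425 and 19537 in gamma delta T cells. Tmsb15a and Itgam were higher by 4.66 and 2.02. Bcl2l11, which encodes the death-promoting protein BIM, and Cd9, a tetraspanin, were higher by 2.15 and 2.33. Of 8 T cell receptor signalling genes, 1 was higher, Cd28 at 1.52, and 2 were lower, against 10 of 10 lower beside CD8 T cells.

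The rule leaves out cells with Ncr1 that also hold Cd3 transcripts. These were more frequent than NK cells, at 133, 130 and 35 cells in libraries 1 to 3. They were also deeper, with medians of 6503, 4600.5 and 3999 UMIs against 4942.5, 3818 and 2960.5 in NK cells. Finding no Cd3 UMI depends in part on depth. Of these 298 cells, 255 had 2 or more Cd3 UMIs. Cd3g was detected in 114, 114 and 32 of them, Cd3e in 61, 51 and 12, and Trac in 37, 20 and 2. To ask what differs with the Cd3 limit, NK cells were compared with them. Of 3923 genes, 25 (0.637%) were higher and 30 (0.765%) lower in NK cells by edgeR, 1.4% in all. DESeq2 called 10, so single genes are less certain here than against the T cell classes.

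Of 13 Ly49 and inhibitory receptors tested, 0 were higher and 2 lower in NK cells, with a median of -0.03 against -0.04 over all genes. The lower ones were Lag3 (-1.34) and Ctla4 (-0.82), the latter call lost under 6 of 12 alternatives and at -0.36 without library 1. Klra4 stood at 818, 489 and 1259.9 CPM in NK cells and 809, 521 and 1289 in the Cd3-positive cells, a difference of -0.03 with an SE of 0.15. For Klrb1c the difference was 0.56 with an SE of 0.23. The marker Klra8 stood at 454, 212 and 350 CPM in NK cells and 308, 235 and 664 in the Cd3-positive cells. Klra7 stood at 243, 160 and 280 CPM against 189, 261 and 223, and Klrb1a at 208, 228 and 327 against 218, 90.4 and 140. These marker levels are a description. In NK cells, Klrb1b was at 617, 369 and 420.0 CPM, and in Cd3-positive cells at 254, 192 and 229.7 CPM. Klrb1b had a log2 difference of 1.08 (SE 0.18, adjusted p by edgeR = 1.7e-06), with no overlap between the classes. The levels of Itgam were 71.4, 61.6 and 70.0 CPM in NK cells and 21.3, 15.3 and 0 CPM in Cd3-positive cells. Itgam had a log2 difference of 1.99 (SE 0.41, adjusted p by edgeR = 0.0002), with no overlap between the classes. Tmsb15a, Serpinb9b, Bcl2l11 and Irf8 were higher in NK cells by 1.99, 1.48, 1.01 and 0.72. Each of these calls was lost under DESeq2.

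For Itgae, NK cells had 0, 9.23 and 23.3 CPM and Cd3-positive cells 128, 44.5 and 115 CPM. Itgae had a log2 difference of -3.79 (SE 0.50, adjusted p by edgeR = 2.6e-11), with no overlap between the classes. Ifitm1, an interferon-induced membrane protein gene, had 0 UMIs in NK cells and 249 in the Cd3-positive cells, at least 29.4-fold lower. S100a4 stood at 74.7, 157 and 46.7 CPM in NK cells and at 202, 381 and 166 CPM in Cd3-positive cells. S100a4 had a log2 difference of -1.36 (SE 0.23, adjusted p by edgeR = 7.1e-07), with no overlap between the classes. Stmn1 and Lat gave -1.79 and -1.18, and Stmn1 was the 1 of 3 division genes that passed. The calls of Itgae, Lag3, Lat, Serpinb9b and Bcl2l11 were lost without library 1, those of Stmn1 and Lat without library 2 and those of Stmn1 and Bcl2l11 without library 3. In NK cells, Ccl4 was at 980.3, 557 and 327 CPM, and in Cd3-positive cells at 88.2, 959.5 and 128 CPM. For Ccl4 the direction turned with the library. Ccl4 had a log2 difference of 1.21 (SE 0.20, adjusted p by edgeR = 7.1e-07), with some overlap between the classes. This SE and p rest on variance shared between genes and do not measure the turn between libraries. Without library 1 the difference was -0.40, and 1 NK cell of that library held 33.4% of all NK UMIs of the gene. Gzmb was higher by 0.63, which was lost without library 1 or library 3.

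NK cells differed among themselves in the Ly49 genes they carried. Of Klra1, Klra3, Klra4, Klra7, Klra8, Klra9 and Klra10, 25 cells had none detected, 25 had 1, 21 had 2, 33 had 3, 16 had 4, 19 had 5, 4 had 6 and 1 had all 7. Klra4 was found in 94 cells (65.3%) and Klra1 in 81 (56.2%). In library 1, 29 of 54 cells held both Klra8 and Klra4, and 3 held Klra8 alone. The corresponding counts were 20 and 3 of 76 cells in library 2 and 5 and 1 of 14 in library 3. Counts of detected genes follow depth, since a cell with fewer UMIs shows fewer genes, and reads shared between near copies can add genes.

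**Figure D4:**
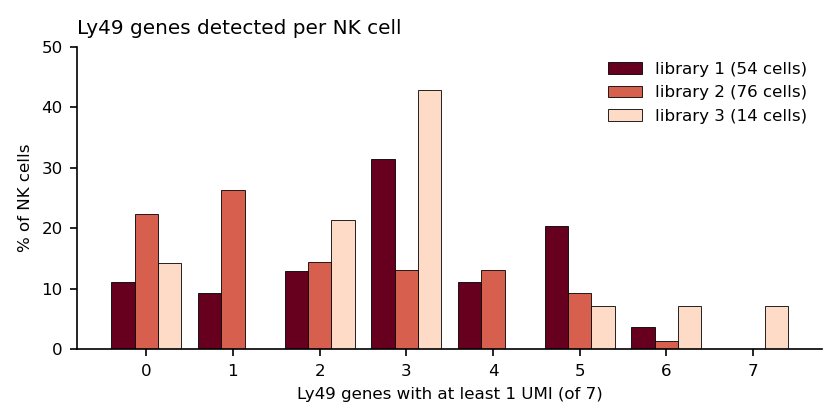
Percent of NK cells in each library (54, 76 and 14 cells) by how many of 7 Ly49 genes had at least 1 UMI. Library 2 is highest at 1 gene (20 cells), and libraries 1 and 3 are highest at 3 genes (17 and 6 cells).

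Killing genes were spread unevenly too. Gzma and Gzmb were both detected in 23, 32 and 7 cells, and Gzma without Gzmb in 12, 19 and 5. Gzmb without Gzma was seen in 2, 5 and 1. Prf1 was found in 90 of 144 cells, and Ctsw and Nkg7 in 138 each. Eomes was detected in 65 cells and Tbx21 in 72, with both in 16, 13 and 2 cells of libraries 1 to 3. One cell of library 1 held 65 of the 75 UMIs of Gzmc, a granzyme gene of highly activated killer cells, so its level there is that of 1 cell.

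The chemokine receptor CXCR6 marks resident-type lymphocytes, and NK cells were split by it. At least 1 Cxcr6 UMI was found in 15, 16 and 1 NK cells (27.8%, 21.1% and 7.14%), and only libraries 1 and 2 had 10 cells on each side. Positive cells were deeper, with medians of 6427 and 5126.5 UMIs against 4791 and 3729, so levels are compared in CPM. Of 2200 genes, 32 (1.45%) were higher and 10 (0.455%) lower in Cxcr6-positive cells by edgeR (1.91% in all), which had 2 libraries and thus 1 residual degree of freedom. The test shares variance between genes, so its p-values do not measure the spread of a gene over these libraries. The count of genes called was not stable. It was 0 under DESeq2 (20 genes at an unadjusted p under 0.05) and 0 with the size factors of DESeq2 in edgeR (135). In edgeR it was also 0 when the 2 cells rich in H2-Aa (161) or 1 doublet-scored cell (145) were left out. The doublet-scored cell was the H2-Aa-rich cell of library 2, with 9710 UMIs, so these checks overlap. Leaving out that cell alone was enough to bring the count to 0. The values are therefore given as a description.

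The levels of Il7r were 196 and 169 CPM in Cxcr6-positive NK cells and 15.3 and 20.8 CPM in Cxcr6-negative ones. For Tmem176b, Cxcr6-positive NK cells had 351 and 598 CPM and Cxcr6-negative ones 0 and 170.4 CPM. Both genes, which are associated with type 1 innate lymphoid cells, were higher in Cxcr6-positive cells of each library, by 3.27 (SE 0.54) and 2.68 (SE 0.32). Of 4 genes tested in that list, 3 were higher, with Tmem176a at 2.40 (SE 0.39). Itga1, the remaining gene, went the other way at -0.92 (SE 0.56) and did not pass the test. Its levels were 72.3 and 26.0 CPM in positive and 122 and 66.5 CPM in negative cells. Il7r encodes the interleukin-7 receptor. Klra7 stood at 103 and 13.0 CPM in Cxcr6-positive NK cells and at 331 and 212 CPM in Cxcr6-negative ones. In Cxcr6-positive NK cells, Eomes was at 124 and 52.0 CPM, and in Cxcr6-negative ones at 239 and 220.3 CPM. The levels of Klra8 were 92.9 and 169 CPM in Cxcr6-positive NK cells and 666 and 233 CPM in Cxcr6-negative ones. Klra7, Eomes and Klra8 were lower in Cxcr6-positive cells of each library, at -2.17 (SE 0.39), -1.35 (SE 0.37) and -1.70 (SE 0.34). The same direction held for Gzma, at 2560 and 3562 CPM in positive and 3952 and 4784 CPM in negative cells. For Icos, Cxcr6-positive NK cells had 320.0 and 182 CPM and Cxcr6-negative ones 55.9 and 58.2 CPM. It was higher in both libraries, by 2.10 (SE 0.39). Icos encodes a costimulatory receptor of T cells and innate lymphoid cells. The T cell marker genes that the rule did not set to 0 (Trac, Trbc1, Trbc2, Cd4, Cd8a and Cd8b1) summed to 160 and 254 raw CPM in positive and 185 and 245 in negative cells. The 6 dendritic cell genes summed to 2210 and 648 raw CPM in positive and 53.0 and 1003 in negative cells, and 1 positive cell of library 1 and 1 negative cell of library 2 held 132 and 175 of the 373 H2-Aa UMIs of all NK cells. The counts above give the split without those cells.

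NK cells held a larger share of some transcripts than of cells. Of all Gzma UMIs in the filtered cells, 32.6% (exact 95% interval 31.0 to 34.3), 17.2% (16.4 to 18.0) and 23.5% (20.7 to 26.4) lay in NK cells of libraries 1 to 3, or 24.4% ± 7.74 (SD, n = 3). With at least 2 Ncr1 UMIs required, the share in library 3 was 11.7% and the mean 19.6% ± 11.0 (SD, n = 3). For Klrb1c the shares were 26.5%, 23.2% and 16.2%, for Serpinb9 15.5%, 13.8% and 15.8%, and for Klrb1b 18.8%, 10.6% and 14.1%. Those of Klra4 were 9.84%, 14.4% and 10.3%. Xcl1 gave 9.60%, 5.25% and 7.14% and Prf1 5.99%, 6.15% and 9.01%. Gzma and Serpinb9 are markers that were chosen with results of these data known, so their shares are a description only. All of the shares above exceeded the 0.913% to 1.40% of cells that were NK cells. That is a share of cells and not of UMIs. NK cells held 282540, 331955 and 41987 UMIs, and the whole libraries 22983991, 55120460 and 3399733 before filtering.

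For Gzmb the NK share was 4.79% ± 1.76 (SD, n = 3), or 3.11% with at least 2 Ncr1 UMIs. For Ccl5 it was 0.898% ± 0.138 (SD, n = 3), beside 1.08% ± 0.281 of cells. Whether the Ccl5 share, 0.752% in library 2, differs from the NK share of all UMIs was not tested. The share of Ifng was lower than that of cells, at 0.606% (0.323 to 1.03) in library 1 and 0.273% (0.131 to 0.502) in library 2. In library 3, 0 of 376 Ifng UMIs lay in NK cells, which allows a share of up to 0.798% by the limit of 3 counts and 0.976% by the exact interval. The NK share of Tyrobp was 3.32%, 0.690% and 4.09%. Library 2, where it was lowest, held 1889 C1q-positive cells, which also express Tyrobp, and libraries 1 and 3 held 9 and 5. Their part in this share was not tested.

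**Figure D5:**
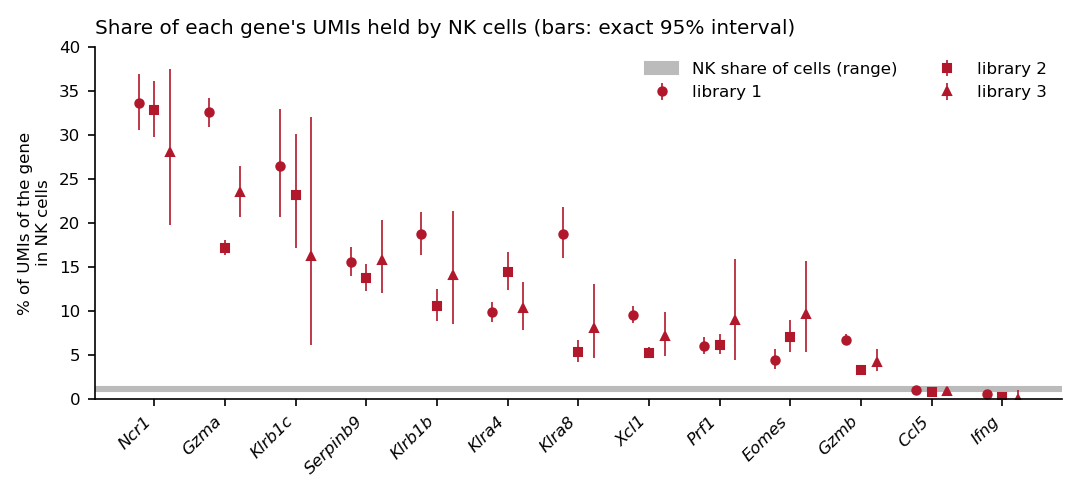
Percent of all UMIs of each gene that lay in NK cells, per library, with exact 95% intervals, and the range of the NK share of cells as a grey band. Gzma reaches 17.2% to 32.6%, while Ccl5 and Ifng lie at or below the band, which is a share of cells and not of UMIs. Ncr1 defines the NK cells, and Gzma, Serpinb9 and Klra8 are markers given with the rule.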

How the data were processed

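CD45+ cells of the sciatic nerve were profiled by single-cell RNA sequencing of 5′ reads in 3 libraries. The authors deposited unnormalized counts of UMIs, 1 matrix per library with 32285 gene rows, made with Cell Ranger 5.0.1 for library 1 and 6.1.2 for libraries 2 and 3 against mm10, per the labels and the study's methods. Library 1 was read in the gene order of the other libraries. Its gene totals had a Spearman correlation across genes of 0.9501 and 0.9287 with libraries 2 and 3, and of 0.3619 and 0.3211 after a shift by 1 gene.

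Cells with over 5000 genes or over 20% mitochondrial UMIs were left out, which kept 3848, 8256 and 1533. The members, gene lists and markers were chosen with earlier results of these data known. Raw counts were summed per library and class where a class had at least 10 cells, and tested with edgeR 4.0.16 (TMM, filterByExpr, quasi-likelihood test, Benjamini-Hochberg adjustment over all genes tested, threshold 0.05) in R 4.3.3. The library was kept as a block, because the classes of a library come from the same mouse or pool. Genes were named as members of fixed lists or as the 10 largest differences in each direction with a mean of at least 50 CPM and the same sign in every library. The tests were also run on simulated counts with the same dispersion for every gene and the same gene proportions in every library. Such counts cannot check the block or the spread between libraries. Other code ran in Python 3.11.15 with numpy 2.4.6, scipy 1.17.1 and scanpy 1.11.5.

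Alternatives were DESeq2 1.42.0, its size factors, no filter on low counts, no block, leaving out each library, at least 2 Ncr1 UMIs, no T cell receptor UMI, a minimum of 300 UMIs and removal of doublets. The automatic threshold of Scrublet marked 0, 0 and 2 cells and was taken not to have worked, so the 118, 545 and 19 highest-scoring cells were removed instead. Leaving out NK cells with 100 or more H2-Aa UMIs was added after seeing the data. Exact intervals are Clopper-Pearson at 95%.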

Additional observations from a re-analysis of the deposited data

How the results depend on the processing

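The number of genes called against CD8 T cells was 760 with edgeR and the library as a block, 383 with DESeq2, 262 without the replicate block and 459 to 1212 when 1 library was left out. Against gamma delta T cells, 208 became 78 with DESeq2, 334 without the filter on low counts, 47 without the replicate block and 58 to 130 without 1 library. Against Ncr1-positive Cd3-positive cells, 55 became 10 with DESeq2, 88 without the filter, 2 without the replicate block, 21 with at least 2 Ncr1 UMIs and 27 to 34 without 1 library. Between Cxcr6-positive and Cxcr6-negative NK cells, 42 became 0 with DESeq2, its size factors, no replicate block, at least 2 Ncr1 UMIs, doublets removed or the cells rich in H2-Aa removed. At an unadjusted p under 0.05 these gave 20, 135, 55, 111, 145 and 161 genes, against 192. Leaving out library 1 or 2, or cells with T cell receptor UMIs, could not be fitted there. The NK share of cells was 0.484% without cells with T cell receptor UMIs. Against CD8 T cells, Nkg7 ranged from -0.21 to 0.01 without 1 library and was -0.39, not passing the test, without cells with T cell receptor UMIs, and against Ncr1-positive Cd3-positive cells Ccl4 ranged from -0.40 to 2.91. Of genes that passed no threshold, Klra9 against gamma delta T cells turned to 0.09 with DESeq2 and 0.27 without cells with T cell receptor UMIs and ranged from -1.10 to 1.12 without 1 library, and Klra4 against Ncr1-positive Cd3-positive cells turned to 0.15 without cells with T cell receptor UMIs. The cause of these changes was not tested. Of the named genes called against CD8 T cells, 55 of 68 kept their call under every alternative that gave a value, 16 of 25 did so against gamma delta T cells, 1 of 15 against Ncr1-positive Cd3-positive cells and 0 of 13 in the Cxcr6 split. With 14 NK cells and 41987 UMIs, library 3 limits the precision of genes with few UMIs.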
